A study of Mus musculus with 38 samples.

Results

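Male-only enhancer regions are H3K27ac peaks of male mouse liver that no female H3K27ac peak overlapped by 1 bp, and that overlapped a male H3K4me1 peak which itself had no female H3K4me1 overlap. There were 1031 such regions, 11.9% of the 8688 H3K27ac peaks without a female partner and 2.52% of all 40903 peaks of the male H3K27ac list. The study mapped 6 histone marks by chromatin immunoprecipitation and sequencing (ChIP-seq) in liver from CD-1 mice of both sexes, which were 8 weeks old and come from an outbred stock. Libraries numbered 3 per sex for H3K27ac and H3K27me3, 4 male and 3 female for H3K4me1 and H3K4me3, and 2 per sex for H3K36me3 and H3K9me3. For each mark and sex, the deposited files of all libraries were identical, so the data are 1 pooled peak list per mark and sex. The spread between animals is therefore unknown for every value, and the intervals given for shares (exact Clopper-Pearson, 95%) cover counting error only. The lists cover the autosomes, and their positions are on build mm9.

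H3K4me1 marks enhancers whether they are active or poised, and H3K27ac marks active enhancers and promoters, so a site with both is read in this field as an active enhancer. H3K4me3 marks promoters, H3K36me3 follows transcription through gene bodies, and H3K27me3 and H3K9me3 lie over silent chromatin. In rodent liver, many genes for steroid, drug and lipid metabolism and for pheromone carriers differ between the sexes under control of growth hormone, whose release is pulsatile in males and more continuous in females. The factor STAT5 carries that signal to DNA, at sites of the type TTCNNNGAA.

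The male H3K27ac list held 19253391 tags, of which 172242 lay in the 1031 regions, and 1 region alone held 21.1% of the latter. Many tag counts of this list were deposited with 3 significant digits, so large counts are approximate. The female H3K27ac list held 12837285 tags. The H3K4me1 lists held 12562838 in males and 20459697 in females, so females had the smaller total for H3K27ac and the larger one for H3K4me1.

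Gene starts were placed on mm9 by reads of 35 bases from 1 male control IgG library (mice of 7 to 8 weeks, from an earlier record) that equalled part of a RefSeq promoter sequence. This placed 8191 of 16457 autosomal protein-coding genes (49.8%), and all 14269 neighbouring pairs of placed promoters stood in the same order in GRCm38.p6. A distance to a placed start is therefore not always the distance to the nearest gene.

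The same IgG reads give genome sequence inside the regions. The first set shows, for 8 genes known for higher expression in male liver with a placed start within 25 kb of a region, the longest stretch of joined reads in the nearest region (mm9, plus strand). Capitals would mark a match, on either strand, to the STAT5-type TTCNNNGAA, the HNF4-type CAAAGTCCA, the C/EBP-type TTGCGCAA, the FOX-type TGTTTAC, the CUX/HNF6-type ATCGAT or the BCL6-type TTCCTAGAA, the last of which is one form of the first. These stretches held none of them.
C6 chr15:4675096-4675130: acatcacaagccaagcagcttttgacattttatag
Cyp2d9 chr15:82274352-82274401: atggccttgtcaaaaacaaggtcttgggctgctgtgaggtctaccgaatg
Gstp1 chr19:4025569-4025619: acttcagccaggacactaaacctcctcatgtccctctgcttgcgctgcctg
Mup21 chr4:61819928-61819973: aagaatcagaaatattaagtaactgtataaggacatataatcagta
Mup7 chr4:60083952-60083986: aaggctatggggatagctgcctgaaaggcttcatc
Slco1a1 chr6:141877418-141877475: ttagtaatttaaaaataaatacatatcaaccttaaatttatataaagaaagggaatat
Susd4 chr1:184687883-184687935: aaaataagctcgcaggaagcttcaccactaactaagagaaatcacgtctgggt
Ugt2b38 chr5:87854923-87854971: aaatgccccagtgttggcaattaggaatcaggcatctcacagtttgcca
At Nat8, an N-acetyltransferase gene, at Spata13 and at Ubd, the placed start itself lay inside a region. The promoters of Nat8 and Spata13 are shown from RefSeq (GRCm38.p6, gene strand, the 250 bases before the start). That of Ubd is not printed and holds no match. The Nat8 promoter stands below a stretch of reads in the region that equals part of it on the other strand (mm9, plus strand). The Nat8 sequences hold no match, and the Spata13 promoter holds 1 STAT5-type match, in capitals.
Nat8 region chr6:85782445-85782481: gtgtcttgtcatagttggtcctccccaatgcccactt
Nat8 promoter chr6:85832280-85832529: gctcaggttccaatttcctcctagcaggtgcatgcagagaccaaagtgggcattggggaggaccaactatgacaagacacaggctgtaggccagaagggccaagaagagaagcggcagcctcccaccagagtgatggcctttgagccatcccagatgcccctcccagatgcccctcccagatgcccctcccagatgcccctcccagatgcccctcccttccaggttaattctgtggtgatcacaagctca
Spata13 promoter chr14:60732654-60732903: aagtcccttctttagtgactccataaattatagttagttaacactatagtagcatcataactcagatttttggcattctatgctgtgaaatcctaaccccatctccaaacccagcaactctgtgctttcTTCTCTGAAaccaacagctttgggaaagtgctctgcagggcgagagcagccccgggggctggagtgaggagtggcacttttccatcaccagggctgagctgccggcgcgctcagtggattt
The next set shows stretches with a STAT5-type match, in capitals, in regions singled out by their score, ratio or group (mm9, plus strand). The regions of the stretches printed here carry no H3K27ac call, but matches were not confined to such regions. In regions with a male H3K27ac call, 21 of 2033 IgG reads held one (1.03%, 0.641 to 1.57), in 19 regions.
chr19:12722739-12722773: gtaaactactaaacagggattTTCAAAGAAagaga
chr15:58888996-58889030: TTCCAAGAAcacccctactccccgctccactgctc
chr15:58894963-58894997: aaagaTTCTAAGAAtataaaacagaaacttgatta
chr4:82042623-82042657: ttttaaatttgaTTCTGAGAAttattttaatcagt
chr13:76135963-76135997: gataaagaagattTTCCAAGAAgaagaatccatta

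Inside the regions, 62 of 6707 IgG reads (counted once per position and strand) held the STAT5-type letters, 0.924% (0.709 to 1.18), in 54 regions. The share was 1.0% (0.90 to 1.12) in the 7657 H3K27ac peaks without a female partner that had no male-only H3K4me1 partner, called the other male-only peaks here. It was 1.01% (0.963 to 1.06) in 15149 shared enhancer peaks, which are H3K27ac peaks with a female partner that lie on a shared H3K4me1 peak and off H3K4me3. The regions were thus not set apart by these letters at this depth, which gave a median of 5 reads per region and left 1001 of 1031 with a read. Of 32817 RefSeq promoter windows of 250 bases, 7.01% held a match. Such a window is longer than a read and has more places for a match. Its share therefore cannot be compared with the shares of reads. The FOX-type letters were in 0.641% (0.464 to 0.863) of reads in the regions and 0.623% (0.585 to 0.663) in shared enhancer peaks. The HNF4-type was in 7 reads, the CUX/HNF6-type in 9, and the C/EBP-type and the BCL6-type in 2 each.

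The regions were mostly weak H3K27ac peaks. Their median tag count was 82 (range 27 to 36400) and their median width 1381 bp, against 64 tags and 1144 bp in the other male-only peaks and 215 tags and 2363 bp in shared enhancer peaks. By score, the authors' own value, the median region ranked at the 77.4 percentile of the male list, where 100 is the weakest, against 83.4 in the other male-only peaks and 49.3 in shared enhancer peaks. Only 123 regions (11.9%) were in the better-scoring 50% and 5 in the better-scoring 10%. The false discovery rate deposited for them had a median of 9.83%, against 1.32% in shared enhancer peaks. The plot of score ranks shows the same shift.

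**Figure D1:**
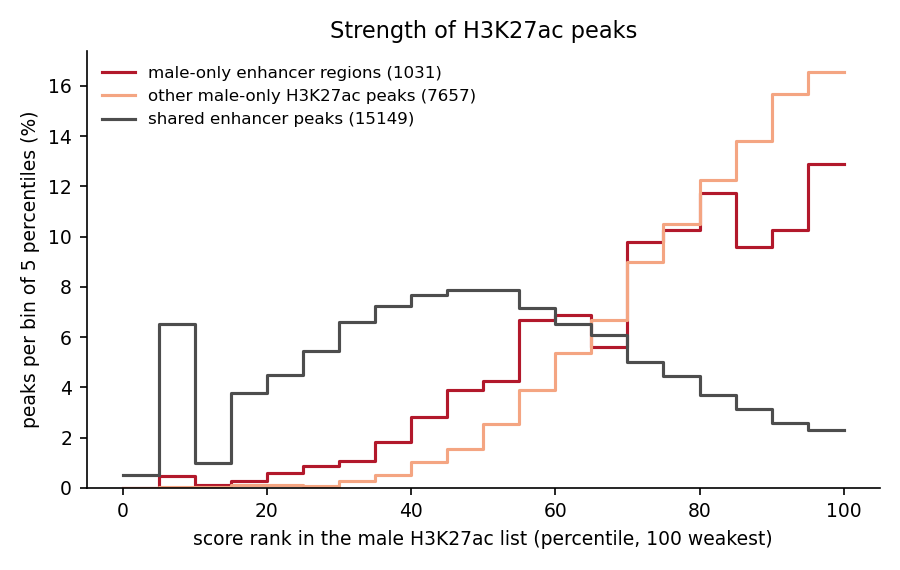
Share of peaks (y, percent per bin of 5 percentiles) by score rank in the male H3K27ac list (x, 100 is weakest) for the 1031 male-only enhancer regions, 7657 other male-only peaks and 15149 shared enhancer peaks. The regions lie towards the weak end, with a median at 77.4, between the other male-only peaks (83.4) and shared enhancer peaks (49.3), and the step of shared peaks near rank 7 comes from tied top scores.

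Most regions had a single H3K4me1 partner (992 of 1031), and together they had 1017 different best-scoring partners. In the median region 98.4% of the narrower of both peaks was covered, and the summits of both marks were 312 bp apart. The median partner held 82 tags and ranked at the 63.6 percentile of the male H3K4me1 list. A female peak was often not far: 69 regions also touched a female H3K4me1 peak beside their male-only one, and 107 lay within 1000 bp of a female H3K27ac peak. At the edge of the rule, the region nearest to a female H3K27ac peak was chr10:115929087-115930987, 15 bp away with a log2 ratio of 0.14, and the first peak left out was chr2:48256994-48257998, which overlapped one by 4 bp and had a ratio of 0.07. The median gap to a female H3K27ac peak was 8137 bp, and 136 regions lay more than 100 kb from one.

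Ratios of male over female signal were taken from the authors' deposited table, where a call needs an absolute log2 of at least 1 and a p below 0.001. The regions were chosen by the absence of female H3K27ac and H3K4me1 peaks, so the ratios and calls of H3K27ac and H3K4me1 describe the regions and support nothing. For H3K27ac, 234 of 1031 regions (22.7%) carried a male call, where 1.74% of the whole male list did. For the H3K4me1 partner, 645 regions (62.6%) carried one, where 8.21% of the male H3K4me1 list did. No region had a female call in either mark, where 0.861% of the male H3K27ac list and 0.501% of the male H3K4me1 list did. Both marks were called male in 207 regions, H3K27ac alone in 27, H3K4me1 alone in 438 and neither in 359. In the authors' deposited table the median log2 was 0.54 for H3K27ac and 1.18 for H3K4me1, and 153 regions had an H3K27ac ratio below 0, 21 an H3K4me1 ratio below 0 and 9 both. Absence from the female list thus went with a ratio near equality in many regions, more so for H3K27ac than for H3K4me1. Regions called in both marks were stronger, with a median of 150 tags and a rank at the 56.7 percentile, than regions called in neither, with 70 tags and 82.9. This difference can be partly built in, since a p below 0.001 is harder to reach with few tags. Of 272 regions with an H3K27ac log2 of 1 or more, 234 were called.

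**Figure D2:**
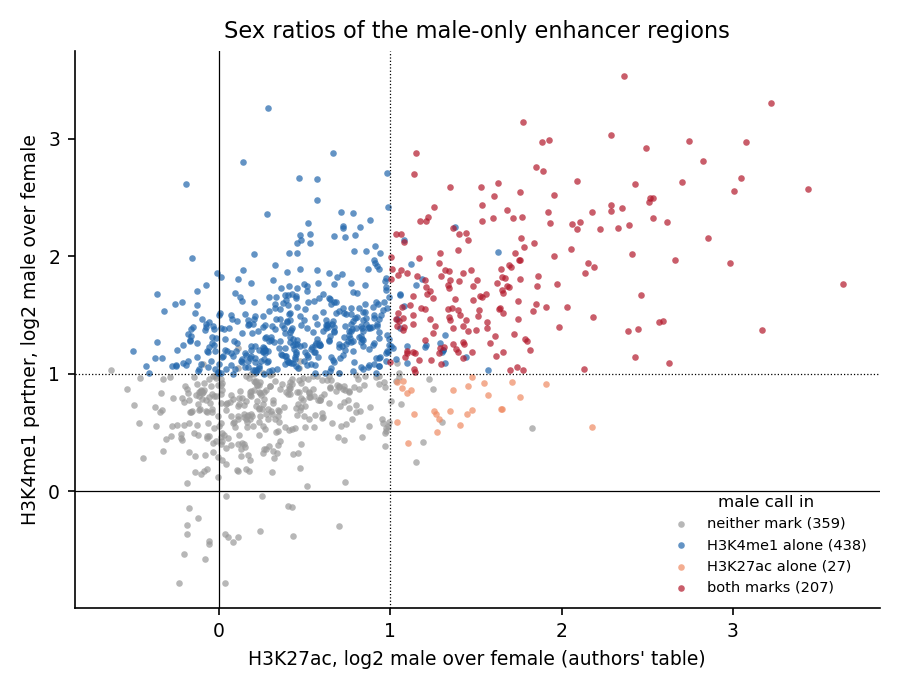
Log2 of male over female signal for H3K27ac (x) and for the best-scoring H3K4me1 partner (y) at each of the 1031 regions, coloured by which mark carried a male call in the authors' deposited table; dotted lines mark a log2 of 1. Most points lie above 0 on both axes, 207 are called in both marks and 359 in neither.

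The region with the most tags went against its absence from the female list. At chr15:58804206-58918680, 114475 bp wide, the male list gave about 36400 H3K27ac tags and 3886 H3K4me1 tags, yet the authors' deposited table gives log2 ratios of -0.18 and -0.29. It also touched a female H3K4me1 peak beside its male-only one, and the nearest female H3K27ac peak was 1882 bp away. A similar case was chr4:82021641-82054345, with 9219 and 671 tags, ratios of 0.43 and -0.13 and a female H3K27ac peak at 1118 bp. Neither region had a male call in either mark, although the H3K27ac ratio of the second was above 0. In the other direction, 16 of the 20 regions with 500 or more H3K27ac tags carried a male H3K27ac call.

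Among the 10 regions with the best H3K27ac score, 9 were called male in both marks, the exception being chr4:82021641-82054345. The strongest of the 9 was chr4:103052689-103071596, 18908 bp wide, with 5055 H3K27ac tags and 344 H3K4me1 tags, whose log2 ratios the authors' deposited table gives as 3.0 and 2.55. It lay 66237 bp from the placed start of Oma1, a mitochondrial protease gene, with no other protein-coding gene of RefSeq between it and Dab1, an adaptor of Reelin signalling whose placed start was 220510 bp away. No female H3K27ac peak lay within 64497 bp of it, though it touched a female H3K4me1 peak. Next came chr14:66333567-66342219 with 1260 tags and a log2 of 1.84, and chr17:44191316-44200174 with 1190 tags and 1.76. The latter stood between Rcan2, a calcineurin regulator 101367 bp away, and Enpp4, an ectonucleotidase 42585 bp away, in a span that also holds Enpp5. The region chr19:4023011-4028593, with 1139 tags and a log2 of 2.57, lay 9320 bp from the start of Gstp1, a glutathione transferase.

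The 10 regions with the best-scoring H3K4me1 partner looked different. In 3 of them the partner was called male and in 6 its log2 was below 0, with 453 to 3886 tags per partner, and neighbouring regions shared a partner in 2 cases. One example was chr4:137432460-137433610, near Ece1 (endothelin converting enzyme, 35864 bp) and Alpl (alkaline phosphatase, 110069 bp), whose partner had 2036 tags and, by the authors' deposited table, a log2 of -0.45. Another was chr16:8529411-8530037, 58504 bp from Mettl22 in a span with Abat, whose partner had 663 tags and a log2 of -0.38. A partner called male, with 510 tags and a log2 of 2.88, reached over both chr1:10145336-10147914 and chr1:10147978-10149358. The other region with a called partner, chr11:17632037-17636207, had 453 H3K4me1 tags at 2.30 and 283 H3K27ac tags at 1.21.

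The largest H3K27ac ratios among called regions ran from 2.83 to 3.64 in the authors' deposited table, and all 10 of these regions were called in H3K4me1 too. The top ratio was at chr18:13546838-13549404 (402 tags, log2 3.64), followed by chr2:148819905-148822333 (239 tags, 3.44) and chr15:4627247-4630351 (304 tags, 3.22). The second of these had a neighbour, chr2:148829940-148831787, with 144 tags and a log2 of 3.05. Both stood between Cst3, a cysteine protease inhibitor gene 118656 bp from the nearer one, and Syndig1. At the low end, the 5 lowest H3K27ac ratios were -0.63 to -0.47, from 33 to 114 tags, and 1 of the 5 had a male H3K4me1 call.

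Most of the placed genes of known male bias had a region nearby. From a list of 34 genes known for higher expression in male liver, 19 had a placed start, and 14 of these had a region within 100 kb, where 8.34% of all 8191 placed genes did. Within 25 kb it was 9 of 19, where 2.43% of all placed genes did. Of 31 genes known for higher expression in female liver, 13 were placed and 0 had a region within 100 kb, a count too small to set apart from the 8.34% of all placed genes. From 18 genes of growth hormone signalling and liver transcription factors, 11 were placed and 0 had one, for which the same holds. Genes of one cluster share regions, so these counts are not of independent genes. The gene lists were also chosen with earlier results of these data known, so the counts describe the listed genes and test nothing. The placed genes set beside them were not matched for expression in liver or for nearby H3K27ac peaks. The 28 regions near the 14 genes included 15 with a male H3K27ac call (53.6%) and 23 with a male H3K4me1 call (82.1%). Over all 1031 regions these shares were 22.7% and 62.6%, and both marks were used to choose the regions.

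**Figure D3:**
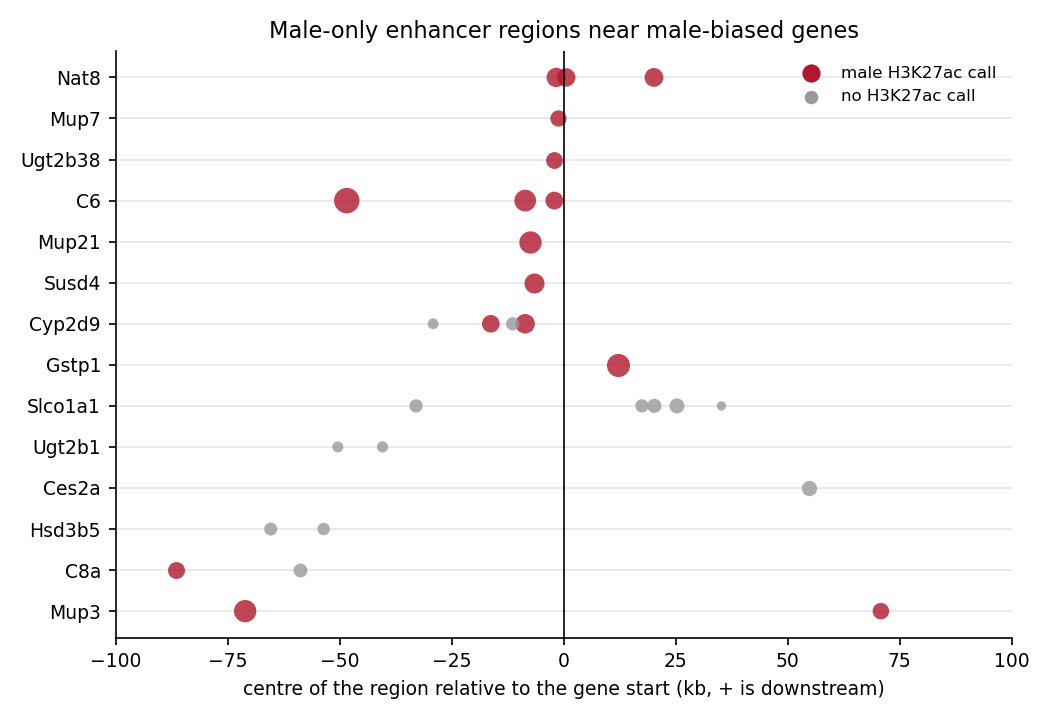
Position of the male-only enhancer regions (centre, x in kb from the placed gene start, positive downstream) within 100 kb of 14 male-biased genes (y, ordered by distance); red points have a male H3K27ac call and point area grows with the H3K27ac log2. The nearest regions at Nat8, Mup7, Ugt2b38 and C6 lie at or just before the start, and the 5 at Slco1a1 have no H3K27ac call.

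C6, a component of the terminal complement pathway, had 3 regions, all before its start and all called male in both marks. Their H3K27ac tags, from far to near, were 304 at 46860 bp, 311 at 7390 bp and 119 at 1304 bp, with log2 ratios of 3.22, 2.22 and 1.34 in the authors' deposited table. The ratio was thus highest in the region farthest from the gene. Its H3K4me1 ratios, 3.30, 2.23 and 1.88, had the same order. C8a, another terminal complement gene, had 2 regions upstream, of which the farther (84938 bp, 250 tags, log2 1.16) was called and the nearer (58144 bp, 157 tags, 0.60) was not. Both were closer to the placed start of Fyb2, which lay 20981 bp from the region with 157 tags and had 4 regions within 100 kb. Susd4, a complement regulator, had 1 region at 6226 bp with 64 tags and a log2 of 1.82.

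Among genes of steroid and drug metabolism, Cyp2d9, a cytochrome P450 steroid hydroxylase, had 4 regions within 24.9 kb of each other. From far to near they held 1150, 1030, 64 and 733 H3K27ac tags, with log2 ratios of 0.18, 1.29, 0.52 and 1.69, and the 2 with ratios over 1 were called. The farthest, with the most tags, had a female H3K27ac peak 153 bp away and was nearer to Cyp2d10 (13575 bp) than to Cyp2d9 (26678 bp). All 4 regions also lay within 100 kb of the placed starts of Cyp2d10 and Cyp2d11. Gene copies of this cluster resemble each other, as do those of the Ugt2b, Mup, Nat8 and Cyp4a clusters, and the sources used here do not say how reads that match several copies were treated. Ugt2b38, a glucuronosyltransferase, had a called region 1065 bp before its start (176 tags, log2 1.13), while Ugt2b1 had 2 uncalled regions farther upstream (145 and 38 tags, 0.22 and 0.20) whose H3K4me1 partners were called at 1.02 and 1.43. Hsd3b5, a steroid reductase, had 2 regions beyond 50 kb (55 and 88 tags, 0.39 and 0.48), called in H3K4me1 alone at 1.15 and 2.14. Ces2a, a carboxylesterase, also had 1 region called in H3K4me1 alone, at 52619 bp (379 tags, H3K27ac log2 0.85 and H3K4me1 log2 1.59).

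Slco1a1, an organic anion transporter, had 5 regions and no H3K27ac call. Their tags were 130, 149, 102, 167 and 52 in order along the chromosome, and their H3K27ac log2 ratios -0.07, 0.80, 0.67, 0.52 and 0.52 in the authors' deposited table. All but the second were called male in H3K4me1, at 1.39 to 1.76. Slco1a1 thus contrasts with C6, where both marks were called at each region. Other placed starts were near the Slco1a1 regions too, as Slco1a4 had 6 regions within 100 kb and Gm6614 had 5. The region with 52 tags was nearer to Gm6614 (28335 bp) than to Slco1a1 (32453 bp).

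Mup genes encode urinary proteins that carry pheromones. A region lay 451 bp before the start of Mup7 (134 tags, H3K27ac log2 1.04, H3K4me1 log2 2.19), and another 6184 bp before Mup21 (620 tags, 2.39 and 1.36). A further region stood 68274 bp from Mup3 (536 tags, 1.07 and 1.37). All 3 were called in both marks. Nat8 had 3 regions, at the start (130 tags, H3K27ac log2 1.47), 430 bp from it (264 tags, 1.66) and 18826 bp from it (180 tags, 1.55), and all were called in H3K27ac while the first alone was called in H3K4me1.

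Genes without a placed start could be set between placed neighbours in RefSeq order. Of 10 male-biased genes held by such a span of at most 500 kb, 5 had a region in it, where 6.35% of all 8980 unplaced protein-coding genes with such a span did. A longer span has more room for a region, and span lengths were not matched between both sets of genes. The 5 genes lie in 4 spans, since Cyp4a12a and Cyp4a12b share one. Of 14 female-biased genes 1 had a region in its span. Between Pdzk1ip1 and Cyp4a30b, the span that holds the fatty acid hydroxylase genes Cyp4a12a and Cyp4a12b, 5 regions within 47.3 kb were all called male in both marks. Their H3K27ac tags were 300, 107, 120, 46 and 123, with log2 ratios of 1.74, 1.61, 3.08, 2.37 and 1.77, and their H3K4me1 ratios ran from 1.06 to 3.53. Between Nolc1 and Nfkb2, the span of the fatty acid elongase gene Elovl3, 2 regions were called in both marks (236 tags at 1.93 and 299 tags at 1.45). The span of the bile acid hydroxylase gene Cyp2c70, from Cyp2c50 to Aldh18a1, had 2 regions without an H3K27ac call (68 tags at -0.05 and 145 tags at 0.45), whose H3K4me1 ratios were -0.42 and 1.25, the latter called male. The region in the span of Mup20 is the one given above for Mup3. The span from Slc22a26 to Gm41804 holds the female-biased transporter gene Slc22a27 with other genes of its family, and its region chr19:8202084-8206030 (400 tags) was male by 2.75 in H3K27ac and 2.98 in H3K4me1. Which gene of that span it belongs to was not resolved. The same holds for the regions in the spans of the male-biased genes, since those spans hold other genes too. The span around Ghr, the growth hormone receptor gene, held 5 regions of 42 to 88 tags with H3K27ac ratios of -0.25 to 0.19, none of them called in H3K27ac. Their H3K4me1 ratios ran from 0.19 to 1.06, and the highest, at chr15:3303555-3304335, was called male.

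Markers of liver cell types were looked up in the same way. Alb, the hepatocyte albumin gene, had 1 region at 22368 bp, called in neither mark (349 tags, H3K27ac log2 0.36), and the hepatocyte genes Apoa1 and Hnf4a had none within 100 kb. Of 6 placed markers of other liver cells, Stab2 of sinusoidal endothelium had a region at 30497 bp called in H3K4me1 alone (220 tags, 0.56 in H3K27ac and 1.07 in H3K4me1), and Lrat of stellate cells had one at 75732 bp that was called male in both marks (75 tags, 2.46 in H3K27ac and 1.67 in H3K4me1). Clec4f, Cd5l, Cd79a and Epcam had none within 100 kb. In whole liver, a change in the number of cells of a type and a change within cells cannot be told apart.

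Joining regions no more than 25 kb apart gave 893 groups, and 245 regions (23.8%, 21.2 to 26.5) fell into 107 groups of 2 or more. Adjacent H3K27ac peaks can rest on 1 H3K4me1 peak, so neighbours are not all separate enhancers. How often other peaks of equal number would fall this close was not tested. The group with the most members, chr19:12697343-12755784, held 6 between Gm4952 and Keg1, on both sides of Glyat, a glycine acyltransferase gene. Its H3K27ac ratios ran from -0.03 to 1.64 and its H3K4me1 ratios from 0.46 to 1.55, with 1 and 3 male calls. The next group was the 5 of the Cyp4a span. Of the groups with 4 members, chr4:103024553-103080278 beside Oma1 had 3 H3K27ac calls and 4 H3K4me1 calls, with ratios of 1.39, 0.93, 3.0 and 2.49 for 169, 120, 5055 and 232 H3K27ac tags. In chr11:12379594-12402629 all 4 regions were called in both marks. In chr6:141859049-141879453 by Slco1a1 and in chr1:67212377-67248515, 0 of 4 were called in H3K27ac. The groups on chromosomes 11 and 1 were chosen after their values were seen. Large groups thus included ones called throughout and ones with no H3K27ac call.

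Few regions lay at promoters. The median distance to a placed protein-coding start was 119 kb over the 995 regions on chromosomes with placed genes, against 63 kb in the other male-only peaks and 64 kb in shared enhancer peaks. Within 1000 bp of a placed start were 6 regions (0.603%, 0.222 to 1.31), against 2.14% (1.82 to 2.49) of the other male-only peaks and 0.99% (0.836 to 1.16) of shared enhancer peaks, a share inside the interval of the regions. Regions called in both marks lay farther out, at a median of 162 kb, than regions called in neither, at 91.0 kb. Placed starts inside a region were those of Nat8, Ubd (a ubiquitin-like modifier) and Spata13 (a guanine nucleotide exchange factor).

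H3K4me3 was not used by the rule, but the rule asked for a male-only H3K4me1 peak, which the other male-only peaks lack. How far that choice set the share on H3K4me3 was not tested. H3K4me3 overlapped 28 regions in the male list (2.72%, 1.81 to 3.90) and 12 in the female list (1.16%, 0.603 to 2.02). In the male list the share was 6.36% (5.82 to 6.93) of the other male-only peaks and 32.3% of all H3K27ac peaks, so the regions as a whole were poorer in H3K4me3 than either, and 1001 regions (97.1%) were on neither list. Of the 75 regions with both peaks in the better-scoring 50% of their lists, 9.33% (3.84 to 18.3) overlapped male H3K4me3. This was still below the 32.3% of all H3K27ac peaks, but the interval held the 6.36% of the other male-only peaks. The peaks they are compared with were not limited by score. These values do not go against the label of enhancer. At the 28, the authors' deposited table called 14 H3K4me3 peaks male, where 4.46% of the male H3K4me3 list was called male. Among the 18 of 28 without a female H3K4me3 peak, a choice that itself favours male ratios, all 18 had a ratio above 0 and 13 were called. Of the 14 called, 10 also had a male H3K27ac call.

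The highest H3K4me3 ratio, 3.75, was in the region chr19:8202084-8206030 of the Slc22a27 span. It was followed by 3.40 at the Mup21 region, 2.88 at chr6:17676036-17677079 between alternative starts of St7, 2.81 at chr14:66284516-66287216 and 2.77 at the wide region beside Oma1. Nat8 had 2.23. At chr17:34959390-34963474, between Atf6b and Zbtb12 in a span with the complement genes C4b, Cfb and C2, the H3K4me3 ratio was 1.47 with 454 H3K27ac tags at 1.89. At chr2:84318651-84319579, 1734 bp from a start of Tfpi, an inhibitor of coagulation, the H3K4me3 ratio was 1.60 although the H3K27ac ratio was -0.07 from 80 tags. The H3K4me3 peak of the region on chromosome 15 with 36400 tags had a ratio of -0.16.

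**Figure D4:**
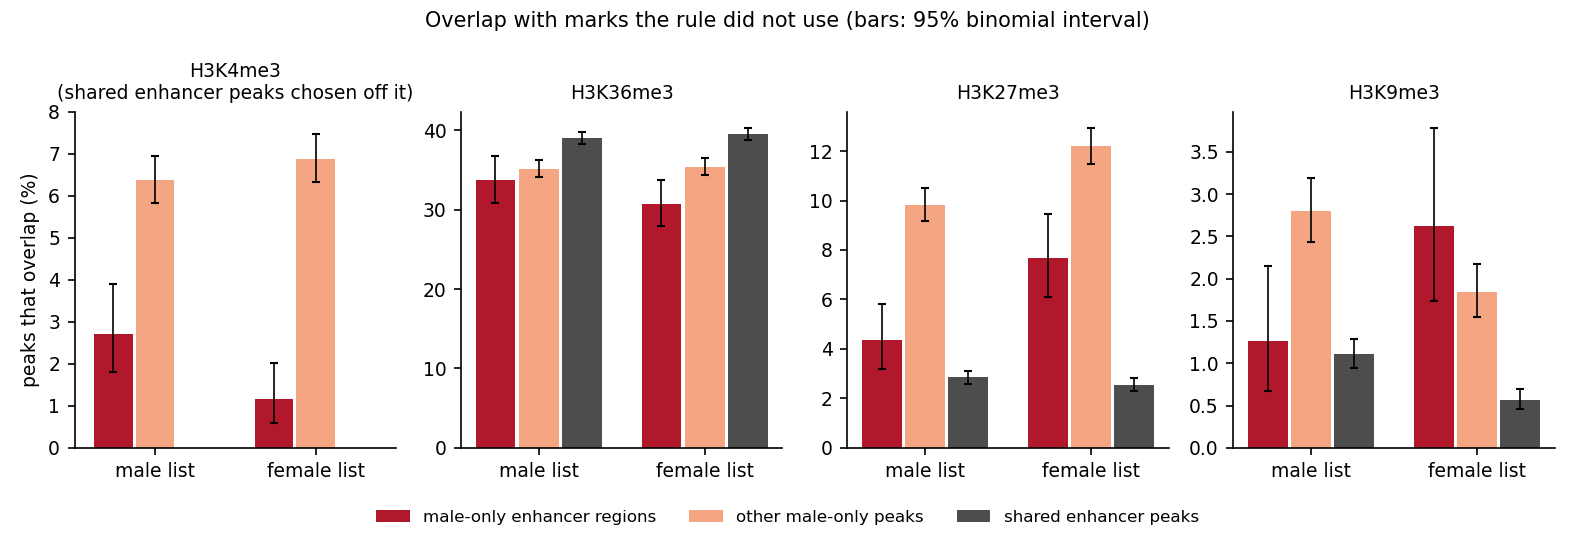
Share of peaks (y, percent) that overlap a peak or island of each mark in the male and the female list, for the 1031 male-only enhancer regions, 7657 other male-only peaks and 15149 shared enhancer peaks; bars show the exact 95% binomial interval, and axes differ between panels. For H3K27me3 of the female list the regions (7.66%) lie between the other male-only peaks (12.2%) and shared enhancer peaks (2.55%).

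H3K36me3, the mark of transcribed gene bodies, overlapped 348 regions in the male list (33.8%, 30.9 to 36.7), close to the other male-only peaks (35.1%, 34.1 to 36.2) and below shared enhancer peaks (39%, 38.3 to 39.8). The 348 lay on 315 different islands. Its median ratio there was 0.05, as over all H3K27ac peaks on such islands (0.05), so the regions as a whole did not sit on male-biased gene bodies. By call the picture differed. Of the 207 regions called in both marks, 39 lay on an island (18.8%, 13.8 to 24.8) with a median ratio of 0.30, against 155 of 359 (43.2%, 38.0 to 48.5) with 0.04 for regions called in neither. In the authors' deposited table, 8 regions were on an island called male, where 0.556% of the male H3K36me3 islands were, and 7 of the 8 were among the 207. These 8 were on 8 islands. They were at 2 of the Cyp4a regions (2.53 and 2.39), the Elovl3 span (1.47), 2 regions beside Oma1 (1.53 and 1.48), chr18:12719997-12724641 (1.26), chr7:94518891-94520964 in the span of Nox4 before Tyr (1.05) and chr8:48003337-48004964 (1.22), the last being called in neither mark.

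**Figure D5:**
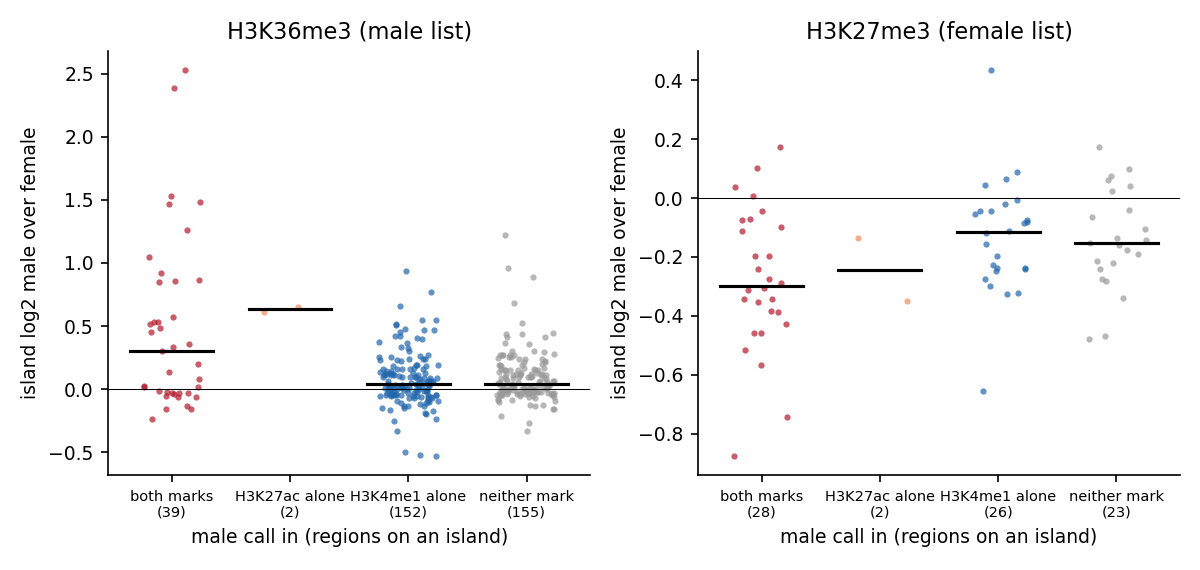
Log2 of male over female signal of the island under each region, for H3K36me3 islands of the male list (left) and H3K27me3 islands of the female list (right), by which mark of the region carried a male call; black lines are medians, numbers in brackets are regions on an island, and horizontal spread is random. Regions called in both marks have the highest H3K36me3 values, up to 2.53, and a median of -0.30 in H3K27me3.

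H3K27me3, a silencing mark, overlapped 45 regions in the male list (4.36%, 3.20 to 5.80) and 79 in the female list (7.66%, 6.11 to 9.46). The other male-only peaks had more, 9.82% and 12.2%, and shared enhancer peaks fewer, 2.85% (2.59 to 3.12) and 2.55% (2.31 to 2.82). At the 79, the median ratio was -0.19, that is, more signal in females, where it was -0.11 over all male H3K27ac peaks on such islands. Among regions called in both marks 28 of 207 (13.5%, 9.18 to 19.0) lay on female H3K27me3, with ratios of -0.88 to 0.17 and a median of -0.30, against 23 of 359 (6.41%, 4.10 to 9.46) for regions called in neither. The lowest value, -0.88, was at chr14:66333567-66342219, and the Elovl3-span region chr19:46205257-46208556 had -0.74. The 79 regions lay on 76 different islands, and 0 of these were called female in the authors' deposited table, a share near that of the whole female list, 0.041%. In the corresponding set of 829 female-only regions, 51 (6.15%, 4.61 to 8.01) lay on an H3K27me3 island called male, where 0.798% of the male list was called male. The rates of calls in both lists differ, and the sets were not tested against each other.

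H3K9me3, the other silencing mark, overlapped 13 regions in the male list (1.26%, 0.673 to 2.15) and 27 in the female list (2.62%, 1.73 to 3.79). The female share was above that of shared enhancer peaks (0.568%, 0.454 to 0.701), and its interval overlapped that of the other male-only peaks (1.84%, 1.55 to 2.17). Of the 27, 6 were on islands called female in the authors' deposited table, 5 different islands, where 2.24% of the female list was called female. Over all male H3K27ac peaks on female H3K9me3 islands, 37 of 498 were on islands called female. The 6 regions included the Gstp1 region (island log2 -1.51) and the 2 regions farthest from Cyp2d9, between it and Cyp2d10 (1 island, -1.57). The others were the complement region chr17:34959390-34963474 (-1.52), chr10:28777561-28779094 (-1.02) and chr14:66249623-66251732 (-1.20). Of these 6 regions, 4 were called male in H3K27ac and H3K4me1, and 2 in neither, among them the region nearer to Cyp2d10, with an H3K27ac ratio of 0.18.

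IgG reads, a measure of how readily a stretch is recovered without a specific antibody, were 1.30 times the autosomal mean per kb in the regions, against 1.12 in the other male-only peaks and 1.20 in shared enhancer peaks. This comes from 1 male library, and its part in the peak calls was not tested. The GC content of those reads was 39.5% in the regions, 43.2% in the other male-only peaks and 42.9% in shared enhancer peaks. Within the regions that had at least 3 reads, the 269 with the lowest GC (mean 32.4%) had male H3K4me1 calls in 75.8% and the 267 with the highest (mean 45.9%) in 51.7%. The 266 between them (mean 38.7%) had 69.2%. For H3K27ac the shares were 26%, 31.6% and 24.3% from low to high GC, with the highest in the middle. GC content thus moved with the H3K4me1 call, and its part in it was not tested.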

How the data were processed

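Reads were aligned to mm9, with Bowtie and SICER 1.1 among the tools named, per the submitters' processing notes. SICER windows and gaps for the broad marks are given per the labels. For the caller of the narrow peaks and for the scaling and test behind the sex ratios, no details are given in the sources used here. For each peak, the authors deposited a raw tag count, a score that grows with the negative log10 of the peak's p-value, a fold over control as a linear ratio and a false discovery rate in percent. For each island the authors deposited read counts, a fold over control and p-values. The authors also deposited, per peak and island, the male to female signal ratio as log2, with its p-value and a call. Among male H3K27ac peaks with 1000 or more tags, 49.3% of counts have 3 significant digits or fewer. The deposited IgG file holds 11201113 aligned reads of 35 bases, 10828699 on autosomes, of which 37.2% repeated a position and strand.

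All libraries of a mark and sex share 1 list, so no test between animals was made. Overlap meant 1 bp. Shares carry exact Clopper-Pearson intervals (95%, scipy 1.17.1, with numpy 2.4.6 and pandas 2.3.3 in Python 3.11.15). Gene starts were placed where an IgG read equalled 35 bases of 1 promoter of RefSeq (GRCm38.p6), and genes without such a read were set between placed neighbours within 500 kb. Genes on chromosome 18 were not analysed here. Regions named in the text were the 10 with the best H3K27ac score, the 10 with the best H3K4me1 partner score, the 10 with the largest called H3K27ac ratio, the 5 best-scoring on a male-only H3K4me3 peak or a male-called H3K36me3 island, the members of the 3 largest groups and the 5 with the lowest ratio, together with regions at genes of fixed lists. The regions, lists and rules were chosen with earlier results of these data known. The scripts were tested on simulated data. Alternatives changed the overlap, the gap, the score limit, the list lengths, the call and the distances. One stretch of sequence is not reported here.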

Additional observations from a re-analysis of the deposited data

How the results depend on the processing

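Of 83 values under alternative settings, over 14 results, 65 stayed within the interval of the value given (for the number of regions, within 1.5 times) and 18 did not. Restricting both peaks to the better-scoring 50% of their lists left 75 regions by construction, of which 76% had a male H3K27ac call, 90.7% a male H3K4me1 call, 9.33% male H3K4me3, 22.7% female H3K36me3, 1.33% male H3K27me3 and 6.67% female H3K9me3, while 13.3% lay near another region and the IgG density was 1.27 times the mean. Requiring no female peak of the same mark within 1000 bp gave 28.3% and 67.3% male calls for H3K27ac and H3K4me1, and H3K36me3 at 29.6% (male list) and 26.3% (female list). A call at a log2 of 1.5 gave 11.9% for H3K27ac and 27.3% for H3K4me1. H3K36me3 covered at least 50% of 29.4% of regions. The share near another region was 20.7% when 50% of the narrower peak had to overlap and 37.5% at 100 kb. Where construction does not show it, the cause was not tested. Shortening the longer lists kept 860 of the regions, lost 171 and added 149. Leaving out the 3 regions wider than 10 kb, an alternative chosen after seeing the data, moved no value out of its interval. No paired analysis was possible because each mark and sex has 1 pooled list, so no replicate could be paired or left out. Depth limits the weakest regions, which hold as few as 27 tags.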
